A study of Mus musculus with 8 samples.

Results

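The 9 genes described here encode enzymes of the tricarboxylic acid (TCA) cycle and were chosen by symbol from the 12551 genes of a count table from tibialis anterior (TA) muscle. All 9 were present, namely *Cs*, *Idh2*, *Idh3a*, *Idh3b*, *Idh3g*, *Ogdh*, *Sucla2*, *Mdh2* and *Fh1*. The muscles came from male mice 7 weeks of age, 4 wild-type (WT, Klotho wt/wt) and 4 homozygous Klotho mutants (KL-/-, Klotho null/null), bred from heterozygous parents on a mixed background. The mutation is carried in every tissue, so a difference in muscle cannot be assigned to the muscle itself. *Kl* is absent from the table's genes, so only the labels give the genotype of each mouse. Whole muscle was extracted, so fewer cells of a type and less RNA per cell cannot be told apart.

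The TCA cycle runs in the mitochondrial matrix. It oxidizes the acetyl group of acetyl-CoA, which comes from glucose, fatty acids and amino acids, and passes the electrons to the respiratory chain as NADH and reduced flavin. In skeletal muscle its enzymes are most abundant in oxidative fibers, and citrate synthase activity is a common index of mitochondrial content. Isocitrate is oxidized by 2 kinds of mitochondrial enzyme. The NAD-dependent complex of the IDH3 subunits is the classical cycle enzyme, while IDH2 is a separate, NADP-dependent protein that makes NADPH.

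Total counts were 20860262 to 26501093 in WT and 22061526 to 29273758 in KL-/- libraries, and 3 counts, the floor used for a count of 0, correspond to 0.102 to 0.144 CPM, the unit in which a gene's counts are scaled to the library size. The defining muscle fiber markers *Acta1*, *Ckm*, *Tnnt3*, *Mylpf* and *Atp2a1* were all present, at a summed 91784 to 106716 CPM in the WT and 108025 to 131033 CPM in the KL-/- mice. The labels give KL-/- replicate 3 a batch date of its own, which no other library has, so batch and mouse cannot be told apart there. KL-/- replicate 2 stood apart in fiber type transcripts. Its *Myh2* (type IIa myosin) was at 292 CPM, against 1169.5 to 5441 CPM in the other 7 libraries, and its *Myh4* (type IIb myosin) was at 62798 CPM, against 32439 to 45341 CPM. Results that rest on these 2 libraries are given with and without them.

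The promoter sequences of genes for isocitrate oxidation are shown because this was the step at which the genotypes differed most. Each is the 250 bases before the RefSeq start on GRCm38.p6, read 5′ to 3′ on the gene's strand, with capitals marking matches on either strand to the motifs named after them. *Idh2* lies at chr7:80115351-80115600 (minus strand), *Idh3b* at chr2:130284452-130284701 (minus strand) and *Idh3g* at chrX:73786898-73787147 (minus strand).
Idh2: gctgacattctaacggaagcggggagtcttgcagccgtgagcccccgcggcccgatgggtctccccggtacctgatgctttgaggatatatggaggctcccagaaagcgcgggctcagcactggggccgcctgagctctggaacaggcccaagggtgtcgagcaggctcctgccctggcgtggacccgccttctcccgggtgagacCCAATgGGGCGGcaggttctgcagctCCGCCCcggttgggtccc
Idh3b: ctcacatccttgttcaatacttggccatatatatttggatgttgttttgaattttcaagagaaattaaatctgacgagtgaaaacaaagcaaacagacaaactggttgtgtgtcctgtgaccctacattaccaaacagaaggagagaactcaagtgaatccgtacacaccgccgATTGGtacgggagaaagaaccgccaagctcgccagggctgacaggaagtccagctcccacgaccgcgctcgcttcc
Idh3g: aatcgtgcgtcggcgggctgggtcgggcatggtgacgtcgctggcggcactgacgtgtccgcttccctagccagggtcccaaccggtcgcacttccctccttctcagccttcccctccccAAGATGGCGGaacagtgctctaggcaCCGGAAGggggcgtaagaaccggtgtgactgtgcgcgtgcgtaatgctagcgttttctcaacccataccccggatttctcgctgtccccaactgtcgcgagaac

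The RefSeq promoter table held 8 of the 9 genes, and *Idh3a* was not matched. In *Idh2* the capitals mark 1 CCAAT box and 2 GC boxes (GGGCGG), which begin 44, 38 and 18 bases before the start. *Idh3b* held 1 CCAAT box, 76 bases before the start. The GENCODE annotation places the starts of *Idh2* and *Idh3b* farther upstream, at 80115392 and 130284547. The 2 GC boxes of *Idh2* and the CCAAT box of *Idh3b* lie downstream of those starts. *Idh3g* held a YY1 site and an ETS site of GABP (CCGGAAG), 130 and 104 bases before the start, and no GC or CCAAT box. The windows of *Idh2*, *Idh3b* and *Idh3g* thus shared no motif in all 3, and *Idh2* and *Idh3b* had the CCAAT box in common. Over the 8 genes, a GC box was found in 6 and a CCAAT box in 5, against 32.7% and 33.8% of all 32851 windows of this length. The counts are per gene and the shares per window. The first windows of the 8 genes were also richer in G and C, with a median of 59.2% against 52.4% for all windows. The ETS site was found in 6.91% and the YY1 site in 0.301% of all windows. No member window held the estrogen-related receptor site (TCAAGGTCA, 0.387% of all windows), its shorter half-site AAGGTCA (4.08%, contained in the longer site) or a TATA box (TATAAA, 12.4%). The NRF-1 site (3.74% of all windows) was found in *Sucla2* and the E-box (CACGTG, 6.02%) in *Ogdh*. *Ogdh* has several start sites in the table, and a match in any of its windows was counted. These matches describe letters in a window and not bound sites.

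Of the 9 transcripts, 1 rose in KL-/- muscle, *Idh2*, and 0 fell. The test was edgeR's quasi-likelihood F-test, adjusted over the whole table by Benjamini-Hochberg (FDR), and it called 14.0% of genes, 7.35% higher and 6.67% lower, at an FDR under 0.05. The median log2 fold change (KL-/- over WT) of the members was 0.11, beside −0.016 for all genes tested, and 6 of 9 were positive. In 2 members, *Idh2* and *Idh3g*, every KL-/- library lay above every WT library, against 10.2% of all genes, and in 0 members below, against 9.47% (19.7% in either direction). Of all counts, the 9 genes together took 0.700% ± 0.0167 in WT and 0.693% ± 0.0519 in KL-/- libraries (SD, n = 4).

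**Figure D1:**
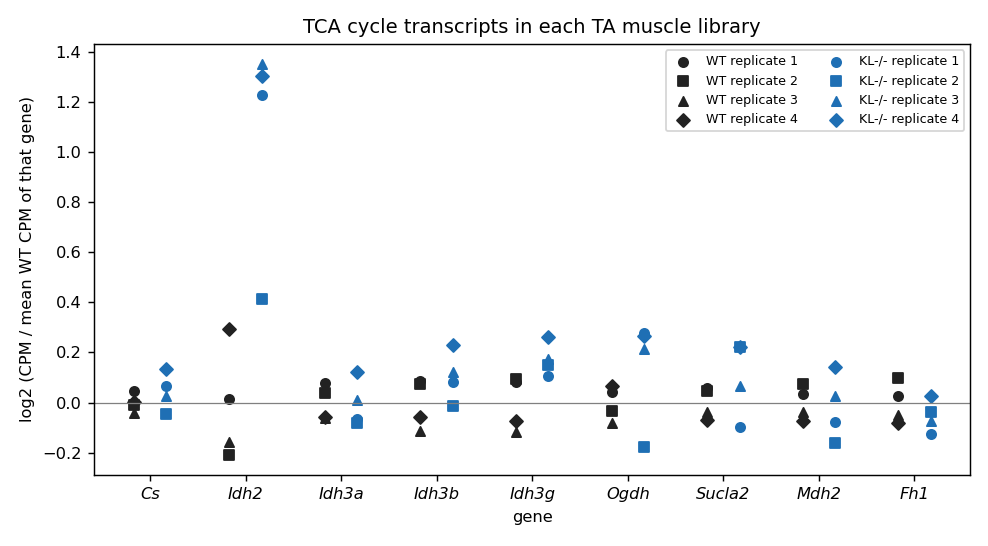
Level of the 9 TCA cycle transcripts in each library as log2 of TMM-normalized CPM over that gene's mean WT CPM (y axis) by gene (x axis), with WT in black, KL-/- in blue and a symbol for each replicate. *Idh2* in the 4 KL-/- libraries lies above the 4 WT libraries, with KL-/- replicate 2 lowest at 200 CPM, while the other genes, apart from *Idh3g*, overlap between genotypes.

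*Idh2* encodes the mitochondrial NADP-dependent isocitrate dehydrogenase (mm10 chromosome 7, 80094847 to 80115350, minus strand, 11 exons after merging). It was at 151, 130, 134 and 184 CPM in WT replicates 1 to 4 and at 351, 200, 382 and 369 CPM in KL-/- replicates 1 to 4. Replicates 1, 3 and 4 of KL-/- lay close together, KL-/- replicate 2 was well below them, and the lowest KL-/- library was only slightly above WT replicate 4. WT mice averaged 150 ± 24.5 CPM and KL-/- mice 325 ± 84.8 CPM (SD, n = 4). This was a 2.17-fold difference with a 95% interval of 1.60 to 2.95, or 1.12 ± 0.20 (SE) in log2 units, at an FDR of 0.00885 by the edgeR test. It passed the threshold in all 8 fits that left out 1 library, with log2 fold changes of 1.03 to 1.30 and an FDR of 0.000644 to 0.0313. Without KL-/- replicate 2 the log2 fold change was 1.30, and within the batch date of the other 7 libraries, without KL-/- replicate 3, it was 1.03 (FDR = 0.0262). *Idh2* was also the most variable member inside a genotype, with an SD of 0.23 in WT and 0.44 in KL-/- muscle on the log2 CPM scale.

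The *Idh2* level was set beside the fiber type transcripts, since oxidative fibers hold more mitochondria. *Myh2* was at 1169.5, 1662, 2486 and 4436 CPM in WT replicates 1 to 4 and at 5252, 292, 5441 and 3445 CPM in KL-/- replicates 1 to 4. WT replicate 4, highest among WT libraries in *Idh2*, was also highest in *Myh2*, and KL-/- replicate 2, lowest among KL-/- libraries in *Idh2*, was lowest in *Myh2*. The libraries with the most *Myh2*, KL-/- replicates 1 and 3, also had high *Idh2* (351 and 382 CPM). KL-/- replicate 4 had less *Myh2* than WT replicate 4 and more *Idh2* (369 against 184 CPM), and KL-/- replicate 2 had less *Myh2* than any WT library and an *Idh2* level above each of them. Of the other fiber type transcripts, *Myh7* (type I) was at 1.84, 8.51, 10.03 and 2.44 CPM in WT replicates 1 to 4. It was at 40.9, 9.54, 3.77 and 2.75 CPM in KL-/- replicates 1 to 4. WT replicate 4 thus had less *Myh7* than WT replicates 2 and 3, and KL-/- replicate 3 less than KL-/- replicate 2. *Myh1* (type IIx) was lowest in KL-/- replicate 2 (11209 CPM) and highest in WT replicate 1 (20009 CPM). *Myh2* did not pass the threshold (log2 fold change 0.57, FDR = 0.613). Nor did *Myh7* (1.34, FDR = 0.301), *Myh1* (−0.31, FDR = 0.246) or *Myh4* (0.46, FDR = 0.155). The paper reports *Myh4* as higher in KL-/- TA muscle. In stained sections it counted more type IIb and fewer type IIx fibers, and it found no change in succinate dehydrogenase activity. The part of fiber type in the *Idh2* result was not tested.

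**Figure D2:**
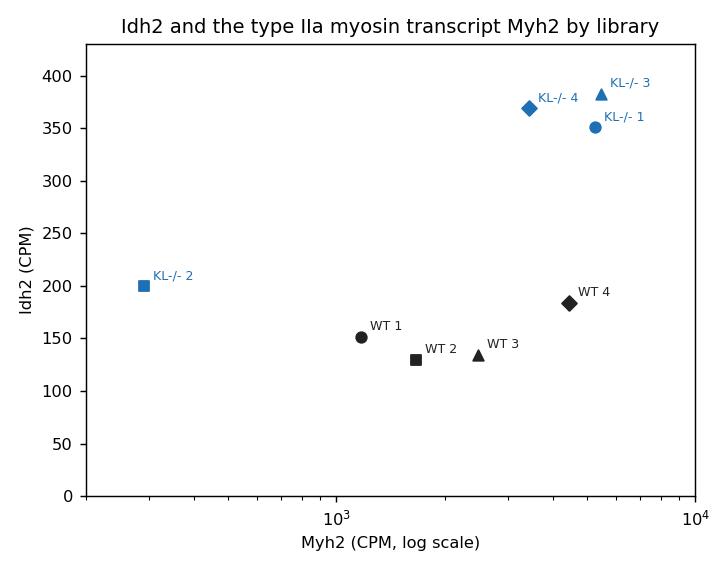
*Idh2* (y axis, CPM) against *Myh2* (x axis, CPM on a log scale), 1 point for each library, WT in black and KL-/- in blue. KL-/- replicate 2 lies at 292 CPM of *Myh2* and 200 CPM of *Idh2*, above the 4 WT libraries in *Idh2* and to the left of them in *Myh2*.

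Markers of other cells were read in the same libraries. Markers counted as higher or lower in KL-/- muscle had an FDR under 0.05, beside 7.35% of all genes higher and 6.67% lower. Of 6 adipocyte markers 4 were in the table, with sums of 6.57 to 25.4 CPM in the WT and 5.18 to 71.1 CPM in the KL-/- mice. The WT library with the highest sum, replicate 4, also had the highest *Idh2* in WT. The KL-/- library with the highest sum, replicate 1, had *Idh2* at 351 CPM. The KL-/- library with the lowest sum, replicate 3, had the highest *Idh2*. Of 3 brown adipocyte markers 2 were in the table, without *Ucp1*. Their sums were 5.10 to 8.58 CPM in the WT and 2.15 to 3.63 CPM in the KL-/- mice, with 1, *Dio2*, lower. The 5 Schwann cell markers summed to 31.2 to 56.7 CPM in the WT and 63.1 to 81.4 CPM in the KL-/- mice, with 3 of 5 higher. The 5 endothelial markers summed to 369 to 556 CPM in the WT and 332 to 366 CPM in the KL-/- mice, with 1 lower, and the 5 macrophage markers to 21.9 to 51.0 and 19.1 to 35.3 CPM, with 2 lower. The 5 fibroblast markers summed to 696 to 2821 and 362 to 1245 CPM, with 2 lower. Of 5 red blood cell markers 1 was in the table, at 3.35 to 9.57 and 3.07 to 9.16 CPM. The part of these cell types in the *Idh2* result was not tested.

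The 3 subunits of the NAD-dependent isocitrate dehydrogenase did not pass the threshold. *Idh3a*, the catalytic alpha subunit (chromosome 9, 54586511 to 54604662), was at 980, 953, 889 and 891 CPM in WT and at 887, 878, 936 and 1011 CPM in KL-/- replicates 1 to 4. Its genotypes overlapped throughout, and the log2 fold change was −0.00059 (95% interval −0.16 to 0.16, FDR = 0.997). *Idh3b*, the beta subunit (chromosome 2, 130279309 to 130284451), was at 642, 638, 559 and 581 CPM in WT and at 640, 600, 658 and 710 CPM in KL-/- replicates. It overlapped too, with a log2 fold change of 0.11 (95% interval −0.061 to 0.28, FDR = 0.347). An exon of *Nop56*, on the other strand, overlaps the end of *Idh3b* by a few bases, and no source states whether counting used strand. *Nop56* was itself higher in KL-/- muscle, at 31.4 ± 2.47 against 25.2 ± 2.07 CPM (SD, n = 4, log2 fold change 0.32, FDR = 0.0331), a level far below that of *Idh3b*.

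*Idh3g*, the regulatory gamma subunit (chromosome X, 73778963 to 73786897), was at 432.7, 436.5, 377.1 and 388.4 CPM in WT and at 439.5, 453.3, 461.6 and 490.6 CPM in KL-/- replicates 1 to 4. The genotypes did not overlap, but the lowest KL-/- and the highest WT library lay almost together. The log2 fold change was 0.17 (standard error 0.070, 95% interval 0.019 to 0.33), and at an FDR of 0.119 by the edgeR test it did not pass the threshold.

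Because a ratio of 2 transcripts inside a library does not depend on the scaling between libraries, 12 ratios of counts per kilobase were formed and tested for a genotype difference with all 70 relabelings of the mice (exact permutation, two-sided). In 4 ratios the genotypes did not overlap, and these were among the 5 of the 12 that concerned isocitrate dehydrogenase, the other, *Idh2* to *Idh1*, overlapping. The 4 share genes, with *Idh3a* in 3 of them. Each of these 4 had p = 0.0286 from the exact permutation test, the smallest that 4 against 4 mice allow, and an adjusted p of 0.0857 over the 12 ratios, so 0 ratios passed after adjustment. The design is too small for these ratios to pass, so the adjusted values carry little information.

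The *Idh2* to *Idh3a* ratio was 0.218, 0.192, 0.213 and 0.291 in WT and 0.558, 0.321, 0.577 and 0.515 in KL-/- replicates 1 to 4. Its geometric mean was 2.13-fold higher in KL-/- muscle. Of the summed per-length level (RPKM) of the 4 mitochondrial isocitrate dehydrogenase genes, *Idh2* thus made up 7.48% ± 1.33 in WT and 14.0% ± 2.97 in KL-/- libraries (SD, n = 4). The NADP-dependent transcript remained the minor part in every library, at 16.1% or less.

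Among the IDH3 subunits, the *Idh3a* to *Idh3g* ratio was 1.25, 1.21, 1.30 and 1.27 in WT and 1.12, 1.07, 1.12 and 1.14 in KL-/- replicates 1 to 4. The difference, −0.18 on the log2 scale, was several times the SD of 0.046 in WT and 0.038 in KL-/- muscle. The *Idh3a* to *Idh3b* ratio was 0.965, 0.946, 1.01 and 0.970 in WT and 0.876, 0.925, 0.899 and 0.900 in KL-/- muscle, a log2 difference of −0.11. The *Idh3b* to *Idh3g* ratio differed by −0.068, and KL-/- replicate 2, at 1.16 against 1.25 to 1.28 in the other KL-/- libraries, accounted for much of this, with −0.037 left without it. The ratios of *Idh3a* to *Idh3b* and *Idh3g* were thus 0.927 and 0.884 of their WT values, differences that did not pass after adjustment, and none of the 3 transcripts passed the test by itself. The ratios are not independent of each other.

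**Figure D3:**
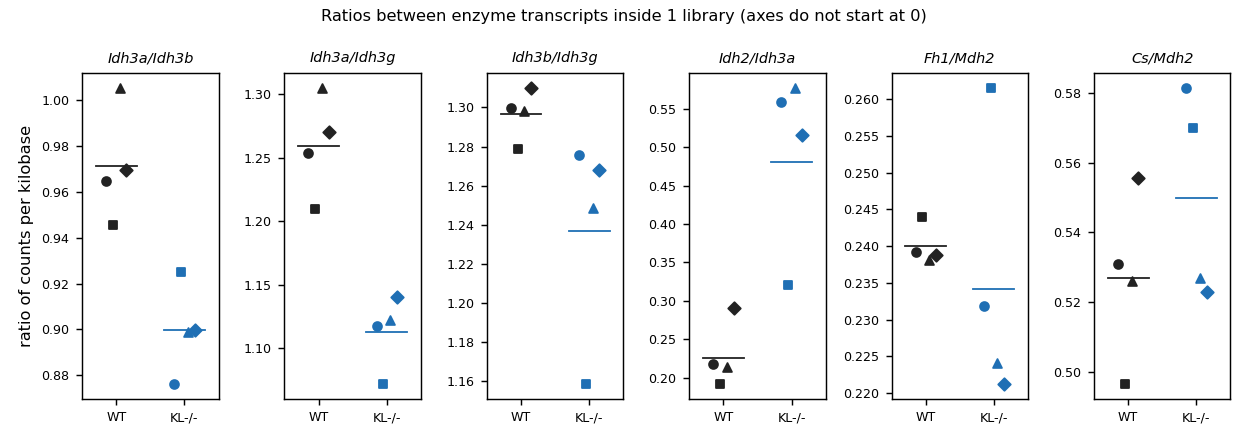
Ratios of counts per kilobase between pairs of enzyme transcripts inside a library (y axes, which do not start at 0) for WT (black) and KL-/- (blue), with a symbol for each replicate and a line at the geometric mean. The genotypes separate in the 3 IDH3 subunit ratios and in *Idh2* to *Idh3a*, and overlap in *Fh1* to *Mdh2* and *Cs* to *Mdh2*.

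*Cs*, citrate synthase, which condenses acetyl-CoA with oxaloacetate at the entry of the cycle (chromosome 10, 128337832 to 128362479), was at 1293, 1245, 1219 and 1255 CPM in WT and at 1312, 1215, 1277 and 1374 CPM in KL-/- replicates 1 to 4. The values interleaved. *Cs* differed by 0.047 in log2 units (SE 0.067, FDR = 0.662), with a 95% interval of 0.931-fold to 1.15-fold under TMM scaling. With libraries scaled by their totals the log2 difference was −0.071. *Cs* was the steadiest member in WT, with an SD of 0.035 on the log2 CPM scale beside a median of 0.10 for genes expressed at least as highly as the lowest member.

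*Ogdh* encodes the E1 component of the 2-oxoglutarate dehydrogenase complex, which makes succinyl-CoA (chromosome 11, 6291597 to 6359094). It was at 1385, 1317, 1274 and 1408 CPM in WT and at 1632, 1192, 1563 and 1617 CPM in KL-/- replicates 1 to 4. KL-/- replicates 1, 3 and 4 lay above all WT libraries and KL-/- replicate 2 below all of them. With all libraries the log2 difference was 0.16 (SE 0.11) and missed the threshold (FDR = 0.330 by the edgeR test), whereas without KL-/- replicate 2 it was 0.26 (FDR = 0.0190). The 2 other parts of the complex gave log2 fold changes of −0.10 for *Dlst* (FDR = 0.287) and 0.11 for *Dld* (FDR = 0.289). The *Ogdh* to *Dlst* ratio was 1.17 in WT and 1.39 in KL-/- muscle as geometric means, a log2 difference of 0.25 (two-sided exact permutation test, p = 0.0571, adjusted p = 0.114).

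*Sucla2*, the subunit that makes succinyl-CoA synthetase ADP-specific (chromosome 14, 73552786 to 73596142), was at 644, 638, 602 and 590 CPM in WT and at 579, 721, 648 and 722 CPM in KL-/- replicates 1 to 4. KL-/- replicate 1 lay below every WT library and the other 3 above. The log2 fold change was 0.11 (95% interval −0.075 to 0.29, FDR = 0.383). The ADP-specific transcript exceeded the GTP-specific *Suclg2* by 15.3-fold in WT and 14.5-fold in KL-/- muscle per kilobase (two-sided exact permutation test, p = 0.486), and its ratio to the shared alpha subunit *Suclg1* was 1.13 and 1.17 (p = 0.314, exact permutation test).

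*Fh1*, fumarate hydratase (chromosome 1, 175601378 to 175625635), was at 336, 353, 318 and 311 CPM in WT and at 302, 322, 314 and 335 CPM in KL-/- replicates 1 to 4, differing by −0.051 in log2 units (95% interval −0.19 to 0.088, FDR = 0.601). *Mdh2*, mitochondrial malate dehydrogenase, which regenerates oxaloacetate (chromosome 5, 135778649 to 135790386), was at 1104, 1137, 1050 and 1024 CPM in WT and at 1023, 966, 1099 and 1191 CPM in KL-/- replicates 1 to 4, differing by −0.012 in log2 units (95% interval −0.19 to 0.17, FDR = 0.934). Both overlapped between genotypes. *Mdh2* lies 15.2 megabases from *Kl* on the same chromosome. The *Fh1* to *Mdh2* ratio, between enzymes of consecutive steps, was 0.239, 0.244, 0.238 and 0.239 in WT and 0.232, 0.261, 0.224 and 0.221 in KL-/- replicates 1 to 4. It was nearly the same in every WT library and wider in KL-/- muscle (log2 SD 0.016 against 0.11), with overlapping genotypes (exact permutation test, p = 0.571). The width and the overlap rest on KL-/- replicate 2, since the other 3 KL-/- libraries lay below all WT libraries. Without it the log2 difference was −0.089 in place of −0.036 (exact permutation test, adjusted p = 0.0686 over the 12 ratios).

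For the 8 members other than *Idh2*, the 95% intervals together ran from 0.874-fold to 1.31-fold, so differences of the size seen in *Idh2* lay outside each of them. The scaling of the libraries mattered for direction at this size. When libraries were scaled by their totals and not by TMM factors, the median of all genes moved from −0.016 to −0.13 and that of the members from 0.11 to −0.0097, so the members' median stayed above that of all genes. *Cs*, *Idh3b* and *Sucla2* changed sign under library totals, while *Idh2*, *Idh3g* and *Ogdh* stayed positive and *Fh1*, *Mdh2* and *Idh3a* negative.

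On the per-length scale (RPKM, CPM divided by gene length in kilobases), the transcripts kept a similar order in both genotypes. In WT muscle *Mdh2* was highest at 841 ± 39.7 RPKM (SD, n = 4), followed by *Cs* at 443 ± 10.9, *Idh3b* at 398 ± 27.2, *Idh3a* at 386 ± 18.98, *Idh3g* at 307 ± 22.8, *Sucla2* at 293 ± 12.4, *Fh1* at 202 ± 11.4, *Ogdh* at 193 ± 8.83 and *Idh2* at 88.0 ± 14.4 RPKM. *Idh3b* and *Idh3a*, *Idh3g* and *Sucla2*, and *Fh1* and *Ogdh* did not differ beyond the range of the 4 WT libraries. *Idh2* stood below every other member in WT. In KL-/- muscle *Idh2* was at 191 ± 49.8 RPKM and overlapped *Fh1* (195 ± 8.64) and *Ogdh* (215 ± 29.8).

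The other mitochondrial genes of the cycle, a list of 11 with 10 in the table (*Ogdhl* was not), held 0 genes past the threshold in either direction with edgeR's quasi-likelihood test. The median of their log2 fold changes was 0.080, and 1 had an unadjusted p under 0.05, as did at least 14.0% of all genes, the share called. The 4 succinate dehydrogenase subunits had log2 fold changes of 0.12 (*Sdha*), 0.0093 (*Sdhb*), 0.086 (*Sdhc*) and 0.074 (*Sdhd*), with an FDR of 0.330 or more.

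Of 5 cytosolic counterparts, 0 passed with edgeR's quasi-likelihood test. An unadjusted p under 0.05 was found for 1, *Idh1*, beside at least 14.0% of all genes. *Idh1*, the cytosolic NADP-dependent isocitrate dehydrogenase, averaged 36.0 ± 5.49 CPM in the WT and 48.5 ± 8.96 CPM in the KL-/- mice (SD, n = 4), with a log2 difference of 0.43 (FDR = 0.0748 by the edgeR quasi-likelihood test). It passed with DESeq2 (FDR = 0.0337), with edgeR's likelihood ratio test (FDR = 0.0383) and without KL-/- replicate 2 (FDR = 0.0334). The *Idh2* to *Idh1* ratio was 5.96 in WT and 9.43 in KL-/- muscle as geometric means, with overlapping genotypes (exact permutation test, p = 0.0857). *Mdh1*, cytosolic malate dehydrogenase, lay lower in every KL-/- library, at 760 ± 111 against 864 ± 18.9 CPM, and did not pass (log2 fold change −0.19, FDR = 0.241). In *Mdh1* too KL-/- replicate 2 was lowest, at 598 CPM, and without it the log2 fold change was −0.078.

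Among 14 genes of anaplerosis, the supply of cycle intermediates, and of mitochondrial carriers, 3 were higher and 0 lower at an FDR under 0.05, beside 7.35% and 6.67% of all genes. *Gpt2*, mitochondrial alanine transaminase, which forms 2-oxoglutarate from glutamate, was at 377, 368, 277 and 329 CPM in WT and at 452, 432, 542 and 458.5 CPM in KL-/- replicates 1 to 4, without overlap. It differed by 0.48 in log2 units (SE 0.11, FDR = 0.0222). *Glud1*, glutamate dehydrogenase, which also forms 2-oxoglutarate, was at 178, 169, 161 and 162 CPM in WT and at 204, 185, 218 and 222 CPM in KL-/- replicates, again without overlap (log2 fold change 0.31, standard error 0.069, FDR = 0.0217). *Me3*, a mitochondrial NADP-dependent malic enzyme, had a log2 fold change of 0.25 (FDR = 0.0455), with overlap. Of the 8 fits that left out 1 library, *Gpt2* passed in 6, *Glud1* in 4 and *Me3* in 2, and none of the 3 passed without KL-/- replicate 3 or without KL-/- replicate 4. With library totals *Glud1* (FDR = 0.0703) and *Me3* (FDR = 0.195) did not pass, and with the replicate block none of the 3 did. *Glud1* also missed the threshold without WT replicate 2 and without WT replicate 3, and *Me3* passed only without WT replicate 1 and without KL-/- replicate 2. The other 11 genes of the list did not pass, among them the transaminases *Got1* (log2 fold change 0.068) and *Got2* (0.12) and pyruvate carboxylase *Pcx* (0.11).

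Of 13 genes taken as an index of mitochondrial content, such as the outer membrane channel *Vdac1* and the mitochondrial transcription factor *Tfam*, 0 passed with edgeR's quasi-likelihood test. An unadjusted p under 0.05 was found for 1, *Phb2*, beside at least 14.0% of all genes. The log2 fold changes of the 13 genes ran from −0.077 to 0.22, with a median of 0.091, which lies beside the median of 0.11 for the TCA cycle members.

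**Figure D4:**
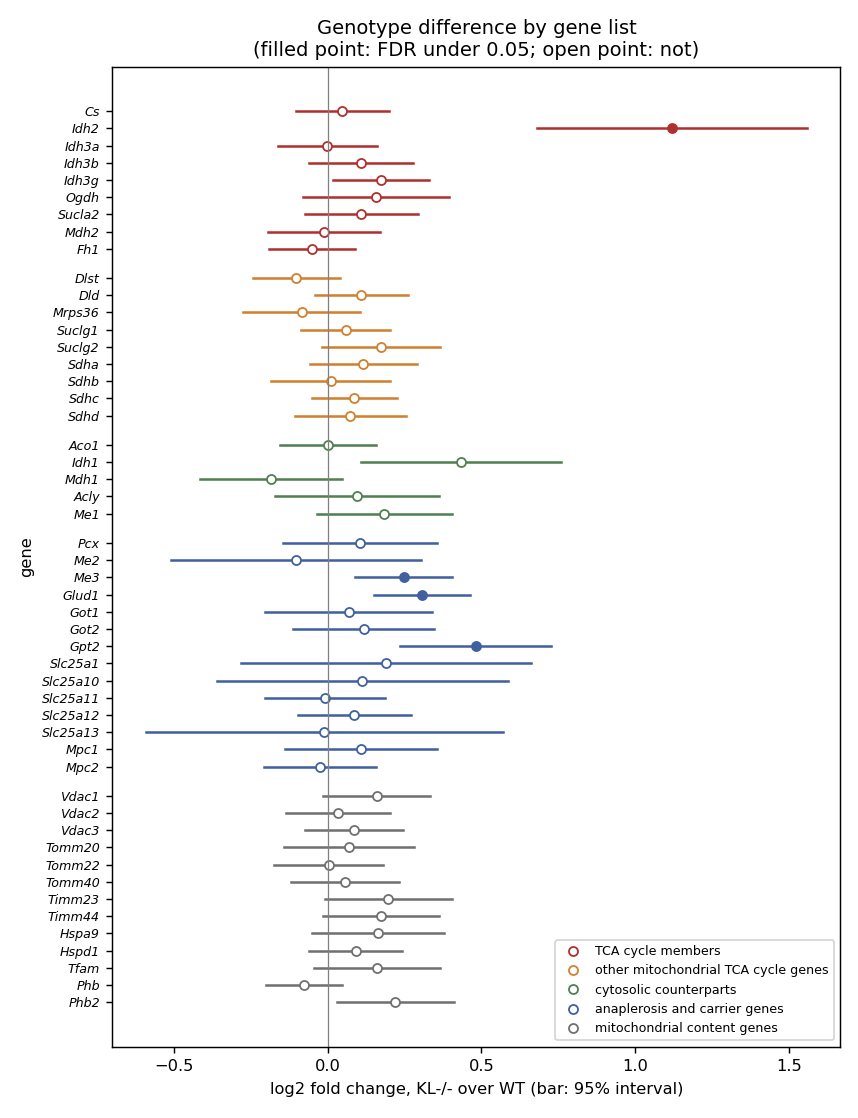
Log2 fold change of KL-/- over WT (x axis) with its 95% interval for the genes (y axis) of the 5 lists reported here, coloured by list, with filled points for an FDR under 0.05. *Idh2* lies at 1.12, apart from the other TCA cycle genes, and the 3 other filled points are *Gpt2*, *Glud1* and *Me3*.

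The average profile of the members over the 8 libraries, each gene centred on its own mean log2 CPM, was −0.034, −0.066, −0.16 and −0.092 in WT and 0.069, −0.055, 0.13 and 0.21 in KL-/- replicates 1 to 4. KL-/- replicate 2 fell among the WT values, so the genotypes overlapped. *Idh2* made up most of the genotype difference in this average, which was 0.18 with it and 0.064 for the mean of the other 8 members, computed after the values were seen. Without *Idh2* the profile was 0.026, 0.018, −0.098 and −0.074 in WT and −0.0098, −0.048, 0.041 and 0.15 in KL-/- replicates 1 to 4, and KL-/- replicates 1 and 2 fell among the WT values. The 5 nearest genes outside the list, by root mean square difference over these libraries, were *Uqcrb*, *Atp5a1*, *Atp5b*, *Cox7b* and *1110008F13Rik*, at 0.027 to 0.031 log2 units. *Uqcrb* encodes a subunit of respiratory complex III, *Cox7b* of complex IV, and *Atp5a1* and *Atp5b* the alpha and beta subunits of ATP synthase. None of the 5 passed the threshold (FDR of 0.108 to 0.304). The nearest members were *Idh3b* (0.049), *Idh3g* (0.063) and *Cs* (0.076), and the nearest other TCA cycle genes were *Dld* (0.048), *Sdhc* (0.056) and *Sdha* (0.059). *Idh2* lay farthest of the members, at 0.52. All profiles share the libraries and their scaling. The 5 genes were chosen as the nearest of 3951 candidates, so their closeness carries no weight of its own. The search was not repeated without *Idh2*.

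**Figure D5:**
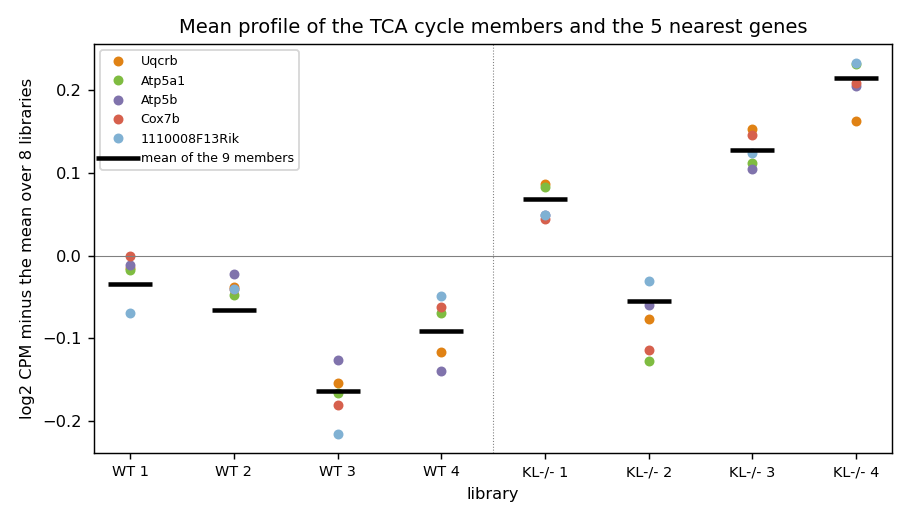
Log2 CPM minus the mean over the 8 libraries (y axis) by library (x axis, WT left of the dotted line), with black bars for the mean of the 9 members and coloured points for the 5 nearest genes outside the list. The points lie close to the bars because the genes were chosen for this. KL-/- replicate 2, at −0.055, falls among the WT values.

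Of the 5 genes nearest to *Idh2* itself, a search added after its values were seen, 4 are named here, *Asb11*, *Gucd1*, *Plin4* and *Pm20d2*, at 0.16 to 0.19 log2 units. Each of the 4 was higher in KL-/- muscle, with log2 fold changes of 0.89 to 0.97 and an FDR of 0.00583 to 0.0218. *Plin4* encodes a lipid droplet coat protein and *Asb11* an adaptor of ubiquitin ligases. These genes were chosen for likeness to a transcript that differed, so their difference carries no weight of its own.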

How the data were processed

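The authors aligned reads to mm10 (STAR), dropped low-quality mappings and deposited raw counts per gene from featureCounts. The annotation and strand setting are not given in the sources used here. The members and lists were chosen with earlier results of these data known. Differences were tested using edgeR 4.0.16 under R 4.3.3 (default filter, which kept all 12551 genes, TMM factors, genotype as the only term, edgeR 4 quasi-likelihood test). Standard errors and 95% intervals came from the test statistic. Log2 CPM values had a prior count of 2, and ratios used counts plus 0.5 over gene length. Gene positions are those of the counted exons, checked against GENCODE vM21 on the same build. All 9 members are named, with list genes that passed, list genes that partner a member (up to 4 a list) and genes nearest in profile (mean log2 CPM 5 or more). The succinate dehydrogenase genes, *Got1*, *Got2*, *Pcx* and *Phb2* were named after their values were seen. Alternatives were RLE and upper quartile factors, library totals, 2 filters, the edgeR likelihood ratio test, DESeq2 1.42.0, limma-voom (limma 3.58.1), the replicate block and each library left out; an edgeR 3 style fit was added after seeing the data. The test was checked on simulated counts. Results of 2 genes are not reported here. The units behind each p-value are the mice sampled, 4 of each genotype. The edgeR p-values judge a difference against the spread between mice, estimated with information shared over the 12551 genes.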

Additional observations from a re-analysis of the deposited data

Results flagged for a closer look

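In the KL-/- group, 1 library stood far from the other 3 in *Idh2* and in *Ogdh*, by Dixon's ratio of the gap to the range in groups of 4. The ratio was 0.868 for *Idh2* on the log2 CPM scale, and 0.841 for *Ogdh* on the CPM scale and 0.861 on the log2 CPM scale, each above the 95% critical value. The library was KL-/- replicate 2 in each case, the one with the lowest *Myh2*, and it was the lowest of the 4. *Idh2* on the CPM scale did not exceed the critical value. Chance alone gives about 1 such group in 20, and 3 of the 60 groups examined were of this kind. The 60 are not independent, because each member was examined on both scales and the ratios use the same genes. The flags for *Ogdh* are the same group on both scales, so the 2 rates cannot be compared directly.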

How the results depend on the processing

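*Idh2* kept its direction and passed in all 18 alternatives, with log2 fold changes of 1.00 to 1.30. The alternative without a filter is the main fit again, because the default filter kept all 12551 genes. The count of members called was 1 in the 10 alternatives that kept all libraries and 1 to 2 with a library left out, *Ogdh* being the other. Genes called over the whole table were 1759 (922 higher, 837 lower), 762 to 2755 with a library left out (780 without WT replicate 2, 775 without WT replicate 3, 2755 without KL-/- replicate 2, 762 without KL-/- replicate 3 and 778 without KL-/- replicate 4), and 671 with the replicate block. With library totals 2619 were called, 492 higher and 2127 lower. With library totals, the other TCA cycle list had 1 call (lower), the anaplerosis list 1, the mitochondrial content list 1 (lower), and the members' median was −0.0097. The cytosolic list had 1 call with the edgeR likelihood ratio test and 1 with DESeq2, and the anaplerosis list 0 with the replicate block (FDR = 0.0718 for *Glud1*, 0.0744 for *Gpt2* and 0.0962 for *Me3*). With a library left out, calls ranged from 0 to 1 in the other TCA cycle list, 0 to 1 in the cytosolic list, 0 to 4 in the anaplerosis list and 0 to 2 in the mitochondrial content list. Signs turned with library totals in *Cs* (−0.071), *Idh3b* (−0.0088) and *Sucla2* (−0.0097), and in *Idh3a* with RLE factors (0.0072) and DESeq2 (0.0073). With a library left out, *Idh3a* ranged from −0.044 to 0.034 and *Mdh2* from −0.068 to 0.043. The cause of these changes was not tested. The 12 ratios kept their sign throughout, with 0 passing after adjustment. With the replicate block no ratio could pass, since flipping signs within same-numbered pairs allows too few patterns for a p under 0.05. The labels do not say whether same-numbered mice were paired. The deviations of same-numbered mice correlated across genes at −0.15, 0.18, −0.37 and 0.017 for numbers 1 to 4, which cannot settle it. Not every sample correlated best with its own number. The replicate block left *Idh2* called (FDR = 0.0213).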
